A study of Mus musculus with 15 samples.

Results

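Erythroid cells lacking the α-globin element R4 (labelled here R4_KO) gave 1 of the 15 libraries of this series, and 1 of its 5 libraries with a single element removed. The library was chosen by its label alone. It was set against R1_KO, R2_KO, R3_KO and Rm_KO, in which the element R1, R2, R3 or Rm was removed, with 1 library each. All 5 were cultures of F1 C57Bl6/CBA fetal liver of stage E12.5, expanded as erythroid precursors, depleted of Ter119-positive cells and differentiated with erythropoietin for 18 hours. The labels name no other allele or agent by which these groups differ, and do not say whether both copies of an element were removed or how many animals were pooled. Control cultures of the same strain, day and protocol (3 libraries) and embryonic stem cells (ES, 1 library) serve as yardsticks. The control libraries lie in a separate table, so values set against them cross tables that were made apart.

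Contacts were measured by NG Capture-C. In this assay crosslinked chromatin is cut with DpnII, neighbouring ends are ligated, and ligation products that hold a chosen promoter are captured and sequenced. A fragment that touches the promoter more often gives more reads. Captured were the promoters of Hba-a1 and Hba-a2 (α-globin), Hbb-b1 and Hbb-b2 (adult β-globin) and Slc25a37, a mitochondrial iron importer of red cell precursors. With 1 library per group no difference can be tested between cultures. No p-value is given. Where an interval is printed, it is the exact Poisson 95% interval for counting error only, and many values are printed without one. The spread of the other single knockouts and of the 3 control libraries stands as the measure of how far libraries differ.

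The α-globin genes encode a chain of haemoglobin and are switched on in maturing red cells by a set of upstream enhancer-like elements, most of which lie inside introns of Nprl3, a gene for a subunit of a nutrient-sensing complex. R1, R2, R3 and Rm lie in Nprl3. R4 is the element nearest the globin genes, between the start of Nprl3 and the embryonic gene Hba-x. In red cell precursors these elements come close to the α-globin promoters, and R1 and R2 are known as the strongest enhancers of the set.

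Shown here are the captured Hba-a1 promoter and those of the genes on either side of R4 in gene order, Hba-x and Nprl3. They are given from the RefSeq table of GRCm38.p6, as the 250 bases before the gene's start on the gene's own strand. The table is of another build than the contact data, so these coordinates are not those of the contact fragments. Capitals mark 3 short motifs, searched on both strands, whose matches do not overlap: GATAA for the red cell factor GATA1, CCAAT for the CCAAT box, and TATAA for the TATA box.
Hba-a1, chr11:32283422-32283671, plus strand: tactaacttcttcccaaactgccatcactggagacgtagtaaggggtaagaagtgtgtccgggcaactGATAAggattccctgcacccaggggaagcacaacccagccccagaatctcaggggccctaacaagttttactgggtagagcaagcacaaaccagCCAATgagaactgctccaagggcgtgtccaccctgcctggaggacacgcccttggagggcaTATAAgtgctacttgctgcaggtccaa
Hba-x, chr11:32276350-32276599, plus strand: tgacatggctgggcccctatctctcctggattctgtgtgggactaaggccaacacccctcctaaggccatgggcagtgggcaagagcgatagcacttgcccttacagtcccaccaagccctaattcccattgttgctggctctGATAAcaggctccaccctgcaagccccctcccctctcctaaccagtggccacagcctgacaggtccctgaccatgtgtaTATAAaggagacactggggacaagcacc
Nprl3, chr11:32267708-32267957, minus strand: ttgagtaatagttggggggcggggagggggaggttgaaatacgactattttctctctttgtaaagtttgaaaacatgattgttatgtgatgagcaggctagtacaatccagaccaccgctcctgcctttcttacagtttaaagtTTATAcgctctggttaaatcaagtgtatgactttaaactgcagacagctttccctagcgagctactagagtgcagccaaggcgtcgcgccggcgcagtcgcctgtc

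Hba-a1 holds 1 match of each motif. Hba-x holds 1 GATA1 motif and 1 TATA box, and Nprl3 holds the TATA box letters on the opposite strand and neither of the others. Of 32851 promoter windows of this length in the table, 22.6% hold the GATA1 motif, 33.8% the CCAAT box and 22.8% the TATA box. The Hba-a2 promoter shares an unbroken run of 247 bases with that of Hba-a1, so reads of the 2 copies could be assigned to either. The sources used here do not say how such reads were counted, and the α-globin viewpoint is treated as 1 throughout. GATC, the DpnII site, is in 41.9% of the windows and in none of these promoters.

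The α-globin table of R4_KO held 681961 reads, against 386214 to 713934 in the other 4 single knockouts. Values below are reads per 100000 reads on the viewpoint chromosome, without the 2 kb on each side of a viewpoint. On that basis R4_KO had 335897 reads, against 236920 to 402907 in the other 4. R4_KO had the largest share of reads on other chromosomes at the α-globin viewpoint, 45.7%, against 37.1% in R1_KO, 31.3% in R2_KO, 43.1% in R3_KO and 41.9% in Rm_KO. It was also the highest of the 5 from the β-globin viewpoint (49.8%, against 37.2% to 47.6%), but not from Slc25a37 (40.9%, against 31.0% to 42.8%). R2_KO had the lowest share at all 3 viewpoints. Regional values were therefore also computed per all reads and per reads within 500 kb of the viewpoint, and the text says where either one moves R4_KO into or out of the range of the other 4. Coordinates of contacts are mm9.

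The library labelled R4_KO lost contact at the position of R4. The block that marks the loss was found from these libraries, as the run of fragments whose value in R4_KO was under 50% of the average of the other 4, so its depth is a description that the rule fixes in part. It spans chr11, 32168682 to 32169921, which is 1240 bp in 4 fragments, and ends 12.4 kb before the first α-globin viewpoint. The α-globin promoters contacted it at 561 in R4_KO (536 to 587), against 1744 in R1_KO, 2386 in R2_KO, 2041 in R3_KO and 2005 in Rm_KO. The 3 control libraries gave 1843, 2375 and 2409, and ES cells gave 866. R4_KO thus lay below each of the other libraries named here, ES cells included. Its log2 ratio was -1.86 (-1.93 to -1.80) over the mean of the other single knockouts. It kept 27.5% of their mean, 25.4% of the control mean and 64.8% of the ES value.

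The loss was deepest in the middle of the block. The fragment at 32169412 to 32169469 gave 30.1 in R4_KO, against 206 in R1_KO, 349 in R2_KO, 266 in R3_KO and 264 in Rm_KO, or 11.1% of their mean. Its neighbour at 32169470 to 32169527 kept 11.6%, with 26.8 in R4_KO, against 199 in R1_KO, 273 in R2_KO, 237 in R3_KO and 213 in Rm_KO. Both are 58 bp long. On the upstream side the block's 730 bp fragment, 32168682 to 32169411, kept 22.6%, with 192 in R4_KO, against 695, 1017, 856 and 836 in R1_KO, R2_KO, R3_KO and Rm_KO. On the downstream side the 394 bp fragment, 32169528 to 32169921, kept 45.2%, just inside the threshold, with 312 in R4_KO, against 644, 748, 682 and 693 in the same 4. No fragment of the block reached 0: R4_KO had 645, 101, 90 and 1049 reads in them, in genome order. The sources used here do not give the ends of the deletion, so which fragments it removes in part was not tested. Just outside the threshold, 32168371 to 32168681 kept 73.8% and 32169922 to 32170701 kept 79.2%.

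**Figure D1:**
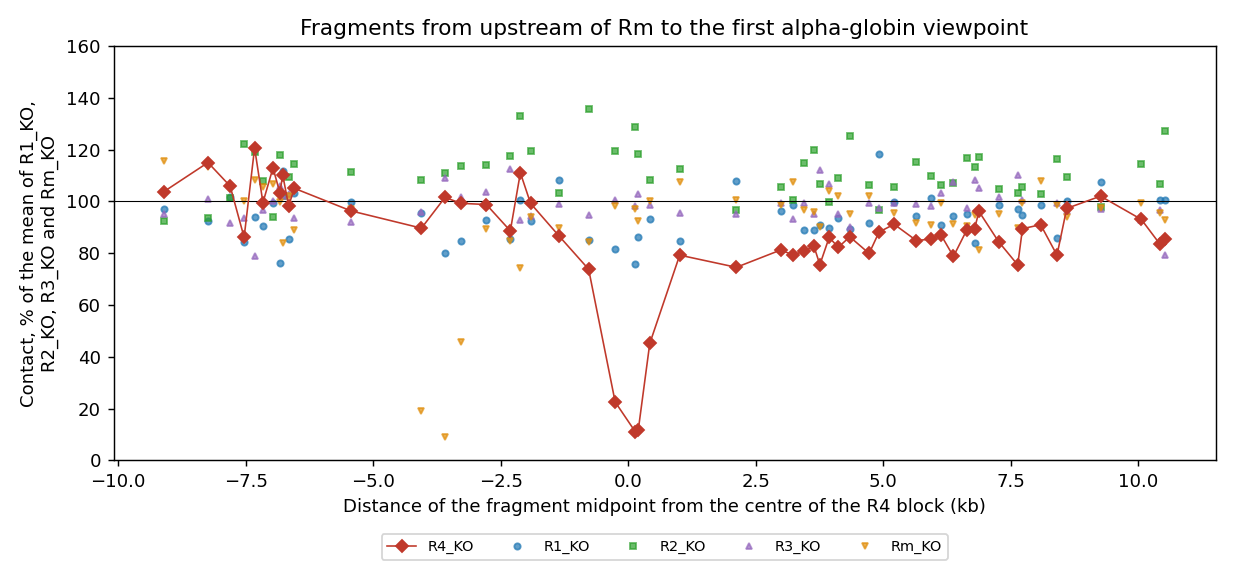
Contact of each fragment with 150 or more reads, from upstream of Rm to the first α-globin viewpoint, as % of the mean of R1_KO, R2_KO, R3_KO and Rm_KO (y axis), by distance of its midpoint from the centre of the R4 block in kb (x axis). Points are single libraries, and Rm_KO is left out of the mean at the Rm block. R4_KO falls to 11.1% in the R4 block and lies at 74.6% to 91.2% at the 18 fragments that follow it in the window.

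The 5 deletions left unequal remnants by the same rule. R4_KO kept 27.5% of the other single knockouts' value at its own block, against 40.2% in R1_KO, 19.5% in R2_KO, 32.5% in R3_KO and 26.2% in Rm_KO at theirs. The R4 loss stood between those of Rm and R3, and each block has a different number of fragments and length. R4 also differed from the rest in where it started. Per kb of block, it was the most contacted element in control cells, at 1782 ± 256 (SD, n = 3), against 496 ± 8.84 for R1, 1294 ± 136 for R2, 990 ± 19.1 for R3 and 1033 ± 56.0 for Rm. In ES cells, where the α-globin genes are silent, R4 was again the highest per kb, at 698, against 98.2 for R1, 277 for R2, 351 for R3 and 353 for Rm. The ratio of control over ES was 2.55 at R4, the smallest of the 5, against 5.05 at R1, 4.68 at R2, 2.82 at R3 and 2.93 at Rm. R4 is the block closest to the viewpoint, and distance was not separated from the rest here.

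Contact was lower in R4_KO next to the missing element too, on both sides at its edges and through the fragments that follow it towards the globin genes. The window around R4, 32167110 to 32176030, holds 26 fragments, all with 150 or more reads, of which 22 lie outside the block. At 19 of these R4_KO was below each of the other 4 single knockouts, and at none was it above all 4. Over all 551 fragments within 500 kb that met the read minimum outside the 5 blocks, R4_KO was below all 4 at 22% and above all 4 at 15.4%. After the block, 17 of the 18 fragments that follow R4 in the window were below all 4, at 74.6% to 91.2% of the mean of the others, with a median of 82.5%. The exception was a 26 bp fragment, 32174208 to 32174233, at 50.0 in R4_KO, against 67.0 in R1_KO, 54.9 in R2_KO, 55.3 in R3_KO and 49.7 in Rm_KO. Before the block, 2 of 4 fragments were below all 4 others, and the one next to it was the lowest of the 22, at 73.8%. The median over all 551 fragments was 97.4%. None of the 22 passed a 1.5-fold difference in either direction.

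The fragments that flank the block give the size of this difference. Next to its downstream end, 32169922 to 32170701 was contacted at 456 (434 to 480) in R4_KO, against 488 in R1_KO, 647 in R2_KO, 550 in R3_KO and 618 in Rm_KO. Beyond it, 32170702 to 32172142 gave 348 (329 to 369) in R4_KO, against 504 in R1_KO, 452 in R2_KO, 444 in R3_KO and 469 in Rm_KO, a log2 ratio of -0.42. Both lay below all 4 other libraries and below their controls' means, 694 ± 69.7 and 445 ± 32.2 (SD, n = 3). On the upstream side, 32168371 to 32168681 gave 448 (425 to 471) in R4_KO, against 516 in R1_KO, 822 in R2_KO, 576 in R3_KO and 513 in Rm_KO, a log2 ratio of -0.44. One step further out, 32167510 to 32168370 gave 491 in R4_KO, against 613 in R1_KO, 583 in R2_KO, 559 in R3_KO and 507 in Rm_KO, which is below all 4, while the control mean was 467 ± 48.1. Of the 4 fragments of the window before the block, these 2 were below all 4 and the other 2, at 111% and 99.2% of the mean, were within their range.

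The scale moved the size of this stretch but not its side. Per reads within 500 kb, 14 of the 18 fragments after the block were below all 4 others, against 18% of all 551 below and 20.9% above. Per all reads it was 18 of 18, against 32.1% of all 551 below and 6.35% above. With TMM factors it was 16 of 18, against 21.1% of all 551 below and 18.5% above. With DESeq2 size factors it was 16 of 18, against 21.6% below and 17.8% above. Against the 3 control libraries of the other table, R4_KO was below all 3 at 12 of the 18. R1_KO was below all 3 at 6 of the 18, R2_KO at 1, R3_KO at 4 and Rm_KO at 4. Over all 551 fragments that share was 24.3% in R4_KO, 22.0% in R1_KO, 20.1% in R2_KO, 29.8% in R3_KO and 22.5% in Rm_KO. The 18 fragments are neighbours read in 1 library and share its culture, ligation and capture, so they do not count as 18 replicates.

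Nearer the viewpoint the difference narrowed. From the end of the R4 block to the first α-globin viewpoint, 32169922 to 32179853, contact summed over 30 fragments was 10519.6 in R4_KO, against 11658 in R1_KO, 13282 in R2_KO, 11972 in R3_KO and 11844 in Rm_KO. The 3 control libraries gave 11243, 13491 and 13193, and ES cells gave 8187. R4_KO was below all of the erythroid libraries named here and above ES, with a log2 ratio of -0.21 over the other single knockouts. Over each of them alone it ran from -0.34 for R2_KO to -0.15 for R1_KO. The ratio over their mean was -0.15 per reads within 500 kb and -0.39 per all reads, with R4_KO below all 4 in each case. Of the 30 fragments, 23 were below all 4, and among the 12 past the window it was 6, against 22% of all 551. This stretch and those that follow were chosen after the values were seen.

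**Figure D2:**
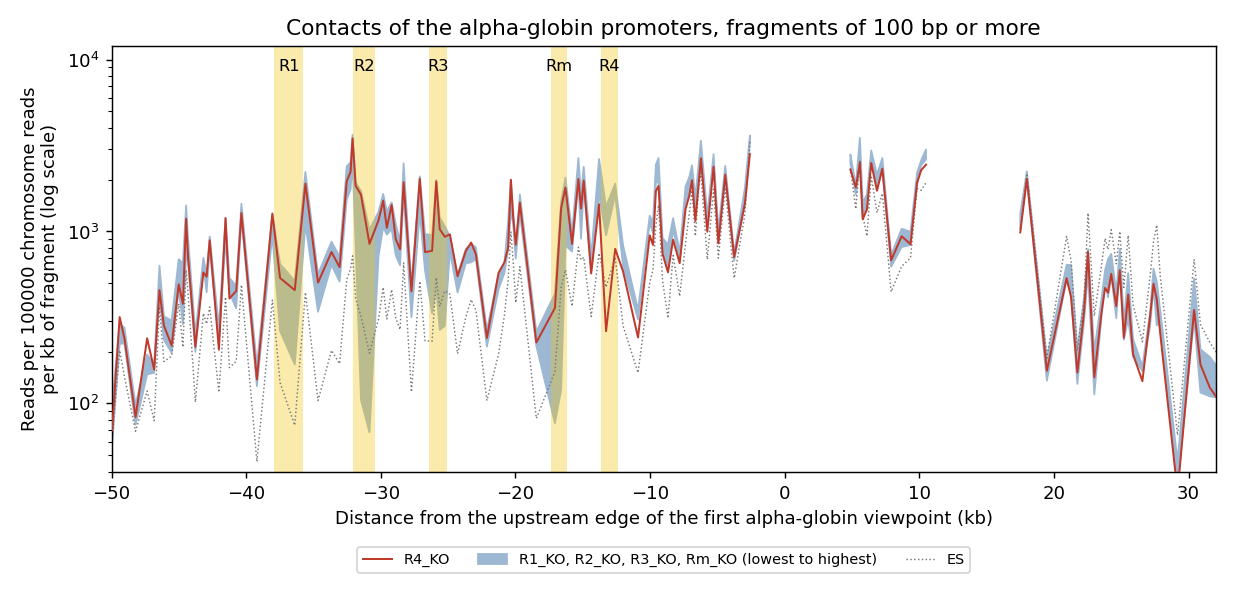
Contact of the α-globin promoters around R4 and the α-globin genes, as reads per 100000 chromosome reads per kb of fragment on a log scale (y axis), by distance from the first viewpoint in kb (x axis). The red line is R4_KO, the blue band runs from the lowest to the highest of R1_KO, R2_KO, R3_KO and Rm_KO, the dotted line is ES, yellow marks the 5 element blocks, and no line crosses the viewpoints. R4_KO leaves the band at R4, at 27.5% of the mean of the others, and lies at or below its lower edge over most fragments from there to the first viewpoint.

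The whole α-globin gene region, 32170702 to 32204979, gave 21583 (21427 to 21741) in R4_KO, against 23736 in R1_KO, 25021.5 in R2_KO, 23770.5 in R3_KO and 24090.5 in Rm_KO. R4_KO was the lowest of the 5, with a log2 ratio of -0.16, or 89.4% of the mean of the others. The other 4 lay within a narrow range. The 3 control libraries spread more widely, at 21615, 23378 and 24740, and the lowest of them nearly met R4_KO. ES cells gave 18278. R4_KO was below all 4 other single knockouts per chromosome reads, per reads within 500 kb (-0.10) and per all reads (-0.33). Of the 53 fragments of this region that met the read minimum, 34 were below all 4 others and none was above. Over all 551 fragments the shares were 22% below and 15.4% above.

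Of the stretches along the gene region, the one from R4 to the first viewpoint differed most. That stretch also holds the fragment 32169922 to 32170701, which is counted in the cluster and not in the gene region. Between the 2 viewpoints, where the gene order places Hbq1b, a gene of the θ-globin type, contact was 9130.2 in R4_KO, against 9682 in R1_KO, 9913 in R2_KO, 9931 in R3_KO and 10263 in Rm_KO. The log2 ratio was -0.12 (-0.29 per all reads and -0.06 per reads within 500 kb, below all 4 in each case), and the control mean was 9070 ± 809 (SD, n = 3), close to R4_KO. Past the second viewpoint contact was 2390.0 in R4_KO (2338 to 2443), with a log2 ratio of -0.12. It was 2884 in R1_KO, 2474 in R2_KO, 2416 in R3_KO and 2602 in Rm_KO, so the interval holds the value of R3_KO. The control libraries gave 2230, 2184 and 2264, with a mean of 2226 ± 39.9, and R4_KO was above each of them. There R4_KO was below all 4 per all reads (-0.29) and inside their range per reads within 500 kb (-0.05). Below all 4 were 8 of 15 fragments between the viewpoints and 4 of 9 past the second, against 22% of all 551. Per reads within 500 kb it was 5 of 15 and 2 of 9, against 18% of all 551.

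Ratios within a library do not depend on which reads are taken as the scale. These ratios were also chosen after the values were seen. The contact from R4 to the first viewpoint over that of the enhancer cluster was 0.617 in R4_KO, against 0.775 in R1_KO, 0.776 in R2_KO, 0.717 in R3_KO and 0.650 in Rm_KO. The controls gave 0.608, 0.715 and 0.694, so 1 of the 3 control libraries was lower than R4_KO. The fragment 32169922 to 32170701 is counted on both sides of this ratio. Over the contact with the upstream genes the same stretch gave 1.36 in R4_KO, against 1.54, 1.62, 1.71 and 1.58 in R1_KO, R2_KO, R3_KO and Rm_KO, and the controls gave 1.47, 1.68 and 1.80. Here R4_KO was below all 7. Over the contact between the viewpoints it was 1.152 in R4_KO, against 1.204 in R1_KO, 1.340 in R2_KO, 1.206 in R3_KO and 1.154 in Rm_KO, so R4_KO and Rm_KO were nearly equal. The cluster over the gene region was 0.790 in R4_KO, above the 0.634, 0.684, 0.702 and 0.756 of R1_KO, R2_KO, R3_KO and Rm_KO, and the controls gave 0.855, 0.807 and 0.768. R4_KO was thus highest of the single knockouts in this ratio and inside the range of the controls. In the remaining ratios R4_KO was inside the range of the other single knockouts. The contact from Rm to R4 over that from R3 to Rm was 0.601 in R4_KO, against 0.568 to 0.791 in them. The controls gave 0.576, 0.613 and 0.624. The cluster over the upstream genes was 2.20 in R4_KO, against 1.98 to 2.44, and the controls gave 2.41, 2.36 and 2.59.

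Per chromosome reads, R2, R3 and Rm were contacted in R4_KO within the range of the other single knockouts, and R1 just below it. R2, the strongest of the enhancers, was contacted at 2068 (2020 to 2117) in R4_KO, against 1710.3 in R1_KO, 2059 in R3_KO and 2279 in Rm_KO, with a control mean of 2089 ± 219 (SD, n = 3). The log2 ratio of R4_KO over the others was 0.04. R3 was contacted at 1354 (1315 to 1394) in R4_KO, against 1037 in R1_KO, 1343 in R2_KO and 1561 in Rm_KO, with a control mean of 1368 ± 26.4 and a log2 ratio of 0.04. Rm, whose block ends 2.51 kb before that of R4, was contacted at 1199 (1162 to 1237) in R4_KO, against 1035 in R1_KO, 1360.4 in R2_KO and 1261 in R3_KO, with a control mean of 1242 ± 67.4 and a log2 ratio of -0.02. In these 3 blocks R4_KO was inside the range of the other single knockouts per all reads and per reads within 500 kb as well, although the ratio per all reads was -0.07 at R2, -0.15 at R3 and -0.22 at Rm.

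R1, the farthest element, was contacted at 1067 (1032 to 1103) in R4_KO, against 1243 in R2_KO, 1098 in R3_KO and 1099.8 in Rm_KO. The log2 ratio was -0.10 (-0.04 without R2_KO), R4_KO was the lowest of the 4, and its counting interval reaches the 2 nearest values. Per all reads the ratio at R1 was -0.27, below all the others, and per reads within 500 kb it was -0.03, inside their range. The control libraries gave 1078, 1066 and 1104, so R4_KO lay between them. Relative to the control mean, R4_KO kept 98.6% at R1, 99.0% at R2, 99.0% at R3 and 96.5% at Rm. In R4_KO they stood at 4.98 (R1), 4.63 (R2), 2.79 (R3) and 2.83 (Rm) times the ES level, while R4 itself stood at 0.648 times.

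**Figure D3:**
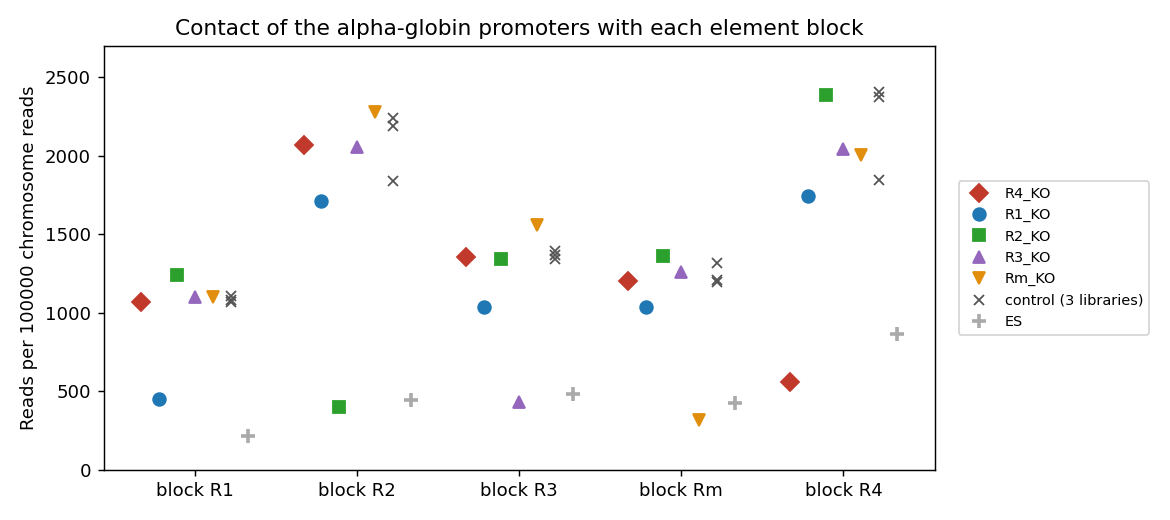
Contact of the α-globin promoters with each element block, in reads per 100000 chromosome reads (y axis, from 0), with 1 point per library for R4_KO, R1_KO, R2_KO, R3_KO, Rm_KO, the 3 control libraries and ES. Each single knockout is low at its own block, which the block rule fixes in part; R4_KO is at 561 at R4 and between 1067 and 2068 at the 4 kept blocks.

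Among the kept elements the libraries that differed most from each other were not R4_KO. R1_KO gave the lowest value among the libraries that keep the element at R2, R3, Rm and R4, and Rm_KO or R2_KO the highest. The 54 fragments of the enhancer cluster outside all 5 blocks, from 32139865 to 32170701, also had R1_KO lowest and Rm_KO highest. They summed to 17043 (16903 to 17183) in R4_KO, against 15039 in R1_KO, 17123 in R2_KO, 16687 in R3_KO and 18222 in Rm_KO. The log2 ratio was 0.02, well inside the range of the others, while the control mean was 18783 ± 268 (SD, n = 3) and ES gave 6173. Per all reads the ratio was -0.14, below all 4, and per reads within 500 kb it was 0.09, so no direction is given for the cluster. Of its 54 fragments, R4_KO was below all 4 others at 5 and above all 4 at 10, against 22% and 15.4% of all 551.

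Within the cluster the ratio of R4_KO over the mean of the other 4 varied between segments. Over the control mean it varied less in the 5 segments up to R4, but not once the fragment after R4 was included. Over the control mean the log2 ratio of R4_KO was -0.12 before R1 and -0.17 from R1 to R2. It was -0.11 from R2 to R3, -0.11 from R3 to Rm and -0.12 from Rm to R4. In the single fragment from R4 to the gene region it was -0.60. The ratios that follow are over the other single knockouts. Before R1 R4_KO gave 1666, against 1524 in R1_KO, 1844 in R2_KO, 1695 in R3_KO and 1806 in Rm_KO, a log2 ratio of -0.04. From R1 to R2 the ratio was 0.08, from R2 to R3 it was 0.13 and from R3 to Rm it was 0.06. Between R2 and R3 R4_KO gave 3859, against 3160 in R1_KO, 3065 in R2_KO, 3454 in R3_KO and 4384 in Rm_KO. From Rm to R4 it gave 2707, against 2790 in R1_KO, 3562 in R2_KO, 3003 in R3_KO and 2615 in Rm_KO, a ratio of -0.14. Per chromosome reads R4_KO was inside the range of the other 4 in each of these 5 segments. Per all reads it was below all 4 before R1 (-0.21) and from Rm to R4 (-0.32), and per reads within 500 kb it was above all 4 from R3 to Rm (0.13). The single fragment from R4 to the gene region, described above, lay below all 4 at -0.34 per chromosome reads, -0.51 per all reads and -0.27 per reads within 500 kb.

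Regions farther away gave small differences. The genes upstream of the cluster, which in gene order include Mpg, a DNA repair glycosylase, Rhbdf1, an inactive rhomboid protease, and Snrnp25, a splicing protein, were contacted at 7731 in R4_KO (32080071 to 32135979), against 7588 in R1_KO, 8182 in R2_KO, 6986 in R3_KO and 7473 in Rm_KO. The control mean was 7670 ± 336 (SD, n = 3), and the log2 ratio was 0.03. Farther upstream it was 0.05, with 1503 in R4_KO, against 1606 in R1_KO, 1502 in R2_KO, 1313 in R3_KO and 1402 in Rm_KO. Downstream of the α-globin genes, 32204980 to 32320310, contact was 5787 in R4_KO, against 6879 in R1_KO, 6152 in R2_KO, 5652 in R3_KO and 6272 in Rm_KO. Its log2 ratio was -0.11, the control mean was 6241 ± 282, and ES cells were much higher, at 13926. Per chromosome reads R4_KO was inside the range of the other single knockouts in all 3 regions. Per all reads it was below all 4 downstream (-0.28), and per reads within 500 kb it was above all 4 at the upstream genes (0.10), so neither region has a settled place relative to the others.

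Single fragments were then called where R4_KO differed 1.5-fold or more from the mean of the others and lay outside all 4. At the α-globin viewpoint 44 of 551 fragments were called lower (7.99%) and 26 higher (4.72%). By the same rule each other single knockout set against its 4 counterparts gave 28 lower and 44 higher in R1_KO, 41 and 61 in R2_KO, 64 and 23 in R3_KO, and 46 and 24 in Rm_KO. The count in R4_KO was within that range. No called fragment lay in the enhancer cluster or the α-globin gene region, where fragments were deepest. Of the 44 called lower, 36 had under 500 reads over the 5 libraries, and so had 24 of the 26 called higher, against 271 of all 551. In the downstream region 13 of 102 fragments were called lower and 1 higher.

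The most changed fragments were thinly read and far from R4. The lowest, 31766099 to 31766387, lies 416 kb from the nearest viewpoint and gave 2.98 in R4_KO, from 10 reads, against 16.6 in R1_KO, 15.6 in R2_KO, 7.81 in R3_KO and 8.82 in Rm_KO, a log2 ratio of -2.04. Next came 31756697 to 31757127 at -1.70, from 14 reads in R4_KO, then 31778014 to 31778185 at -1.20 and 31740402 to 31740607 at -1.15, from 18 and 23 reads. The exception in depth, 881 reads in all, was 32228631 to 32230057, 31.7 kb past the nearest viewpoint in the downstream region. It gave 25.3 in R4_KO, against 69.7 in R1_KO, 62.9 in R2_KO, 63.7 in R3_KO and 46.0 in Rm_KO, a log2 ratio of -1.26. Among the fragments called higher, the leading one was 32433847 to 32434245, 236 kb downstream, at 20.8 in R4_KO, against 8.69 in R1_KO, 10.6 in R2_KO, 4.05 in R3_KO and 9.45 in Rm_KO. Its log2 ratio was 1.35, and the next 4 ran from 1.25 to 1.08, each with 57 to 79 reads in R4_KO.

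The β-globin and Slc25a37 viewpoints lie on chromosomes where no element was removed, and they show how far R4_KO differed there. The β-globin locus control region is the far upstream enhancer group of that locus. The stretch taken for it (chr7, 110994810 to 111023773) was contacted at 20978 in R4_KO, against 21097 in R1_KO, 28142 in R2_KO, 23312 in R3_KO and 23349 in Rm_KO. The log2 ratio over their mean was -0.19, below all 4, against -0.21 from R4 to the first α-globin viewpoint. Over each alone it ran from -0.42 for R2_KO to -0.01 for R1_KO here, against -0.34 to -0.15 there. The counting interval of R4_KO, 20788 to 21169, holds the value of R1_KO at the locus control region. The control mean was 25369 ± 1539 (SD, n = 3). Per reads within 500 kb the ratio was -0.09 and inside the range, and without R2_KO in the mean it was -0.11. The stretch taken for the embryonic β-globin genes (110980132 to 110994809) gave -0.11, below all 4, and -0.01, inside the range, per reads within 500 kb. Both stretches were set by coordinate without gene positions in mm9. Whether an embryonic gene lies inside the stretch named locus control region was not tested. The region on the 5-prime side gave -0.07, inside the range. The 3-prime side was above all 4, at 4852 in R4_KO, against 3986 in R1_KO, 3731 in R2_KO, 4432 in R3_KO and 4712 in Rm_KO, a log2 ratio of 0.20. Per all reads its ratio was 0.07 and inside the range, and per reads within 500 kb it was 0.30 and above all 4.

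From the Slc25a37 promoter, the upstream region that holds its enhancers (chr14, 69906474 to 69959889) was contacted at 30457 in R4_KO, against 29228 in R1_KO, 38138 in R2_KO, 32138.5 in R3_KO and 30477 in Rm_KO. The log2 ratio was -0.09, inside the range of the others, and -0.16, below all 4, per all reads. The control mean was 38284 ± 3215 (SD, n = 3), above R4_KO. The gene body gave -0.06, the far side 0.02 and the far upstream region -0.06, all inside the range. At single fragments, 17 of 382 were called lower (4.45%) and 19 higher (4.97%) from the β-globin viewpoint, and 12 of 264 lower (4.55%) and 6 higher (2.27%) from Slc25a37. The lowest β-globin fragment was chr7, 111101887 to 111102149, at -1.64 from 15 reads in R4_KO, and the highest was 110894514 to 110895160, at 1.01 from 102 reads. From Slc25a37 the lowest was chr14, 69978437 to 69979519, at -0.92 from 21 reads, and the highest 69930684 to 69930712, at 0.74 from 62 reads.

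At the β-globin locus control region R4_KO was level with R1_KO within its counting interval. The differences of -0.21 next to R4 and -0.19 there both came in 1 library. It had the largest share of reads on other chromosomes at both viewpoints. The part of that share in either difference was not tested. The loss at the R4 block was -1.86, and it was -2.04 per all reads and -1.80 per reads within 500 kb. The block was taken from fragments under 50% in R4_KO, so its size is not ranked against the regional differences.

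**Figure D4:**
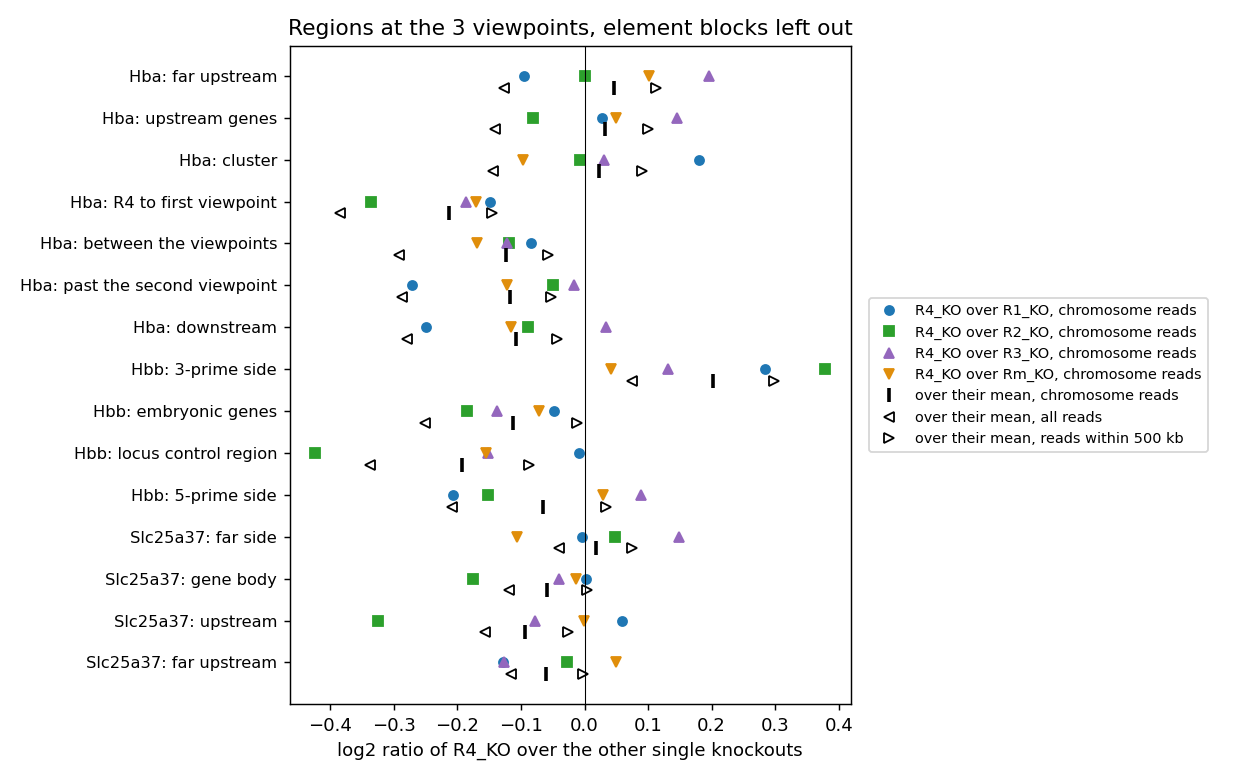
log2 ratio of R4_KO over each other single knockout (coloured points), and over their mean per chromosome reads (bar), all reads (left triangle) and reads within 500 kb (right triangle), for regions at the 3 viewpoints with element blocks left out (y axis, Hba for α-globin and Hbb for β-globin). Per chromosome reads all 4 points lie below 0 from R4 to the first viewpoint, between the viewpoints and past the second viewpoint, and also at the embryonic β-globin genes and the β-globin locus control region. Among these the points nearest 0 are R1_KO at the locus control region, at -0.01, and R3_KO past the second viewpoint, at -0.02.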

How the data were processed

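The authors deposited, for each viewpoint, unscaled counts of reads for every DpnII fragment, with mm9 coordinates. The submitters' processing notes name Trim Galore and Bowtie; their versions are not given in the sources used here. Of the 2 tables per viewpoint, 1 holds the single knockouts and ES cells and the other the controls; 7 columns of each control table match no sample here and were not used. Each data row ends in an extra separator, so columns were read by position.

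Viewpoints were the gaps of at least 1500 bp in the tables. Counts were divided by the viewpoint chromosome's reads, 2 kb beside each gap left out, and given per 100000. R4_KO was set against the unweighted mean of the other single knockouts, without the library that lacks the block or fragment in question. No test was made, since each single knockout has 1 library; intervals are exact Poisson 95% intervals, and PCR reads without molecular identifiers make them counting error only. Whether replicates of the controls share a litter or day is not given, and their SD measures the spread between these samples. Fragment calls needed 150 reads over the 5 libraries, a position within 500 kb outside the blocks and a 1.5-fold difference; the call rule was tested on simulated data. Named fragments are those of the R4 block, 2 on each side, and the 5 lowest and 5 highest called at α-globin and 3 at the other viewpoints, of which the text prints some. The 26 bp and the flanking fragments beyond these were named after their values were seen. The members, regions and rules were chosen with earlier results of these data known. Gene order and promoters came from GRCm38.p6, another build. Python 3.11.15 with pandas 2.3.3 and scipy 1.17.1 made the values; edgeR 4.0.16 and DESeq2 1.42.0 in R 4.3.3 gave only scale factors, as alternatives. Other alternatives were the scale, the width left out at viewpoints, the comparison libraries, the block rule and the call rule.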

Additional observations from a re-analysis of the deposited data

How the results depend on the processing

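No paired analysis was possible because each single knockout has 1 library and the labels give it no replicate number. Over 13 results, 177 alternative values were computed: 74 moved by less than the counting interval, or by less than 1.5 times for counts, and 103 moved by more. Log2 ratios of R4_KO over the other single knockouts follow, in the order R4 block, cluster, gene region, upstream genes, downstream region, R1, R2, R3, Rm, β-globin locus control region and Slc25a37 upstream region. Per all reads they were -2.04, -0.14, -0.33, -0.14, -0.28, -0.27, -0.07, -0.15, -0.22, -0.34 and -0.16. Per reads within 500 kb they were -1.8, 0.09, -0.10, 0.10, -0.04, -0.03, 0.09, 0.13, 0.04, -0.09 and -0.03. Per chromosome reads beyond 500 kb they were -2.02, -0.13, -0.32, -0.12, -0.26, -0.28, -0.08, -0.15, -0.16, -0.32 and -0.22. The scale therefore sets the sign at the cluster, the upstream genes, R2, R3 and Rm, where the ratio is near 0, and not at the other 6.

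With TMM factors the ratios that moved were 0.05 at the cluster, -0.13 in the gene region, 0.07 at the upstream genes, -0.08 downstream, 0.10 at R3, -0.13 at the locus control region and -0.03 at Slc25a37. DESeq2 size factors gave 0.04, -0.14, 0.05, -0.09, 0.09, -0.14 and -0.01 for the same 7. Leaving out 5 kb around viewpoints gave 0.00 at the cluster, -0.26 in the gene region, 0.01 upstream, -0.13 downstream and -0.11 at Slc25a37. The median of the others gave -0.15 in the gene region, -0.04 at R1, -0.07 at Rm, -0.15 at the locus control region and -0.04 at Slc25a37. Against the control mean, in another table, the ratios were -1.98 at the R4 block, -0.14 at the cluster, -0.11 in the gene region, 0.01 upstream, -0.02 at R1, -0.01 at R2, -0.01 at R3, -0.27 at the locus control region and -0.33 at Slc25a37. The 30% block rule gave -2.44 at R4 and 0.00 at R2, and the 70% rule gave 0.01 at the cluster.

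Leaving out each other single knockout gave -1.93 to -1.78 at the R4 block, -0.03 to 0.07 at the cluster, -0.17 to -0.15 in the gene region, 0.00 to 0.07 upstream and -0.15 to -0.06 downstream. It gave -0.13 to -0.04 at R1, -0.07 to 0.13 at R2, -0.10 to 0.19 at R3, -0.13 to 0.06 at Rm, -0.25 to -0.11 at the locus control region and -0.14 to -0.01 at Slc25a37. Of 551 fragments, those called lower were then 41 to 55 and higher 30 to 37, against 44 and 26.

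Without a read minimum, 281 of 2177 fragments were called lower and 322 higher. With a minimum of 500 reads it was 8 and 2 of 280. With 2-fold it was 10 and 8 of 551, and in 5 kb bins 6 and 7 of 196 bins. Thinning all libraries to 236920 chromosome reads left 21 lower and 18 higher of 435. Of 551 fragments, all reads as the scale left 16 higher, chromosome reads beyond 500 kb 17, and the control mean gave 69. Counts of called fragments thus depend on depth, and most calls had under 500 reads.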

Other observations

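The R4 block was also looked for among the reads on chromosome 11 of the β-globin and Slc25a37 tables. From the β-globin viewpoint it held 0 reads in R4_KO, against 13 in R1_KO, 2 in R2_KO, 0 in R3_KO and 0 in Rm_KO. The Slc25a37 viewpoint gave 0 reads in R4_KO, against 0 in R1_KO, 0 in R2_KO, 1 in R3_KO and 0 in Rm_KO. With 3 reads taken as a one-sided upper limit for a count of 0, the 13 reads of R1_KO lie above that limit for R4_KO. They also do so for R3_KO and Rm_KO, which also held 0 and keep R4. The counts were not scaled to the 470262 reads of R4_KO and the 338771 of R1_KO. Without molecular identifiers the 13 reads need not be separate ligation events. The counts of 2 or fewer are too low for a difference from R4_KO to be detectable. The cluster and the α-globin gene region together held 102 reads from the β-globin viewpoint in R4_KO, against 114 in R1_KO, 39 in R2_KO, 79 in R3_KO and 54 in Rm_KO.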
